A study of Mus musculus with 12 samples.

Results

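The 10 genes described here are the Hippo pathway effectors Yap1 (YAP) and Wwtr1 (TAZ), their DNA-binding partner Tead1, the kinases Lats1 and Lats2, the scaffold Amotl2, and the targets Ctgf, Cyr61, Ankrd1 and Axl. They were taken by gene name from the 54446 genes of the count table, and each name matched 1 gene. All 10 passed the filter on low counts and are among the 14724 genes tested, so each had a usable level in every group (629 to 50056 counts per sample).

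RNA-seq counts of 12 samples were compared: wild-type (WT) NIH3T3 cells, a mouse embryonic fibroblast line, and ΔN-VEGF cells, NIH3T3 cells lacking the coding region of N-VEGF, the N-terminal part of a longer VEGF form. Both were kept in normoxia or exposed to hypoxia (below 0.2% O2) for 16 h, with 3 samples per group. The ΔN-VEGF cells came from clones in which Cas9, a pair of gRNAs and selectable donor cassettes replaced N-VEGF on both alleles, followed by cassette removal with VCre and sorting. They are therefore a line of few clones, and a clonal difference and the deletion cannot be told apart. The labels give triplicates and do not say whether these were separate cultures, so the p-values measure the spread between these samples, which may be technical.

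Counts on genes numbered 30519052 to 43056690 per sample. The targeted gene, Vegfa, was at 39.4 to 86.2 CPM (counts scaled to the size of the library) in WT normoxia, 272 to 291 in WT hypoxia, 34.2 to 37.3 in ΔN-VEGF normoxia and 419 to 437 in ΔN-VEGF hypoxia, and a count over the whole gene cannot check the loss of its leader. The 6 genes used to check the hypoxia label rose in both lines. The 8 fibroblast markers summed to 17300 to 43800 CPM per sample and none was at or near 0, whereas Epcam, Krt5, Cd3e and Ptprc had at most 2 counts in any sample. Immune markers summed to at most 6.68 CPM, epithelial markers to at most 3.45 in 3 groups and at least 8.31 in WT hypoxia, mostly Krt14, and endothelial markers to 1.81 to 8.05 in 3 groups and 20.3 to 25.1 in ΔN-VEGF hypoxia, nearly all of it Cdh5. The sum of the fibroblast markers went from 17300 to 26300 CPM in normoxia to 27300 to 29500 in hypoxia in WT, and from 20600 to 21800 to 41600 to 43800 in ΔN-VEGF cells. Its markers did not move one way: 1 rose and 3 fell of 8 in WT, and 5 rose and 2 fell in ΔN-VEGF cells (edgeR). The part of either shift in the results was not tested.

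Both normoxia samples numbered 2 stood apart, that of WT the most. Replicate 2 of WT normoxia correlated with replicates 1 and 3 of its group at 0.956 and 0.957 over log2 CPM, and replicate 2 of ΔN-VEGF normoxia with its own at 0.986, where all other pairs of replicates reached 0.994 to 0.996. By chi-square per gene, replicate 2 of ΔN-VEGF normoxia was at 79.4 and 73.6 from its group, against 4.02 between replicates 1 and 3. Replicate 2 of WT hypoxia was also farther from its group (up to 17.4, against 2.88 between replicates 1 and 3), though far less than replicate 2 of WT normoxia (341 and 364). In ΔN-VEGF hypoxia replicate 2 was at 7.9 and 8.35, against 4.44. Several of the target genes lie between the normoxic and hypoxic levels in the normoxia samples numbered 2. Values and calls of the 10 genes that move without those samples are therefore given both ways, and the calls of the other lists once more as counts without them. All comparisons reuse the same 4 groups: the 2 responses, the 2 comparisons of lines and the test of unequal response share samples and are not independent.

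Hippo signalling is a kinase cascade that senses cell density, shape and adhesion. Its last kinases, LATS1 and LATS2, phosphorylate YAP and TAZ and keep them in the cytoplasm, and unphosphorylated YAP and TAZ enter the nucleus and activate genes through TEAD factors. In fibroblasts these targets include secreted matrix-associated proteins and regulators of the pathway itself, among them LATS2 and AMOTL2. RNA counts do not report the phosphorylation or location of YAP and TAZ.

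The promoters are shown because most of those matched hold the TEAD core motif. In the RefSeq promoter table (GRCm38.p6, 250 bases before to 50 after each start), 8 of the 10 genes matched, and Tead1 and Ctgf did not. GGAATG, read on both strands (CATTCC on the other), was found in 7 of those 8 genes, or 8 of their 10 promoters. It was found in 14.7% of the 32851 promoters in the table. Lats1 had none, and Lats2 had it in 1 of its 2 promoters. The 2 promoters of Wwtr1 overlap and hold the same match, which is counted in both. In the windows below, written 5′ to 3′ on the gene's strand, capitals mark the match.
Yap1, chr9:8004720-8004749, minus strand: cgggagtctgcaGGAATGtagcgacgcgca
Wwtr1, chr3:57576029-57576058, minus strand: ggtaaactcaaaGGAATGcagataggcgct
Lats2, chr14:57746102-57746131, minus strand: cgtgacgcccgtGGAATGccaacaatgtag
Amotl2, chr9:102717727-102717756, plus strand: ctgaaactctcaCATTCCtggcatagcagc
Cyr61, chr3:145650071-145650100, minus strand: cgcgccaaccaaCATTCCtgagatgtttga
Ankrd1, distal match, chr19:36120037-36120066, minus strand: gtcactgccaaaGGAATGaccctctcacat
Ankrd1, proximal match, chr19:36119950-36119979, minus strand: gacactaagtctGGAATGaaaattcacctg
Axl, chr7:25788949-25788978, minus strand: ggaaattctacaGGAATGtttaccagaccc

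A match describes these letters only and is not a shown binding site. The matches lay from 233 bases before the start in Axl to 4 after it in Lats2, and Ankrd1 was the only one of the 8 genes with 2. The core of the hypoxia response element was searched in the same windows: ACGTG occurred in Yap1, Lats1 and Lats2 (19.6% of all promoters), and GCGTG in Yap1, Wwtr1, Lats1 and Cyr61 (32.4%). The CArG box of serum response factor occurred in none of the 8 genes (1.63% of all promoters).

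**Figure D1:**
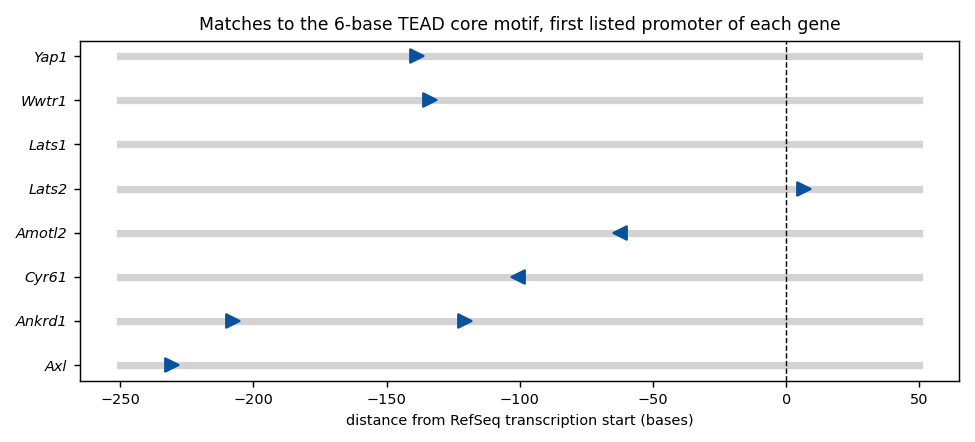
Position of each match to the TEAD core motif, in bases from the RefSeq transcription start (dashed line), in the first listed promoter of the 8 matched genes. Grey bars span the window searched and arrowheads give the strand of the match relative to the gene. Amotl2 and Cyr61 hold it on the opposite strand, Ankrd1 holds it at 210 and 123 bases before the start, and Lats1 holds none.

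In WT cells, 4 of the 10 genes rose with hypoxia and 0 fell (edgeR's quasi-likelihood test, adjusted p below 0.05), and 36.5% of all tested genes were called (18.2% higher, 18.3% lower). They were Lats2, Amotl2, Ctgf and Cyr61, while neither YAP nor TAZ was called. In ΔN-VEGF cells, 6 of the 10 rose and 0 fell, against 53.3% of all genes called (26.9% higher, 26.4% lower). These were Yap1, Wwtr1, Lats2, Amotl2, Cyr61 and Ankrd1. At an unadjusted p below 0.05 edgeR gave 5 and 8 of the 10, all of them rises, and 46.1% and 58.8% of all tested genes. Normoxic and hypoxic samples did not overlap in 4 of the 10 genes in WT and 8 in ΔN-VEGF cells, where the same held for 45.0% and 70.5% of all tested genes. The median log2 fold change over the 10 genes was 0.23 in WT and 1.01 in ΔN-VEGF cells, beside medians of -0.07 and -0.01 over all genes tested, and it was 0.34 and 1.05 without both normoxia samples numbered 2. In bulk RNA, fewer cells with a transcript and less of it per cell cannot be told apart.

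**Figure D2:**
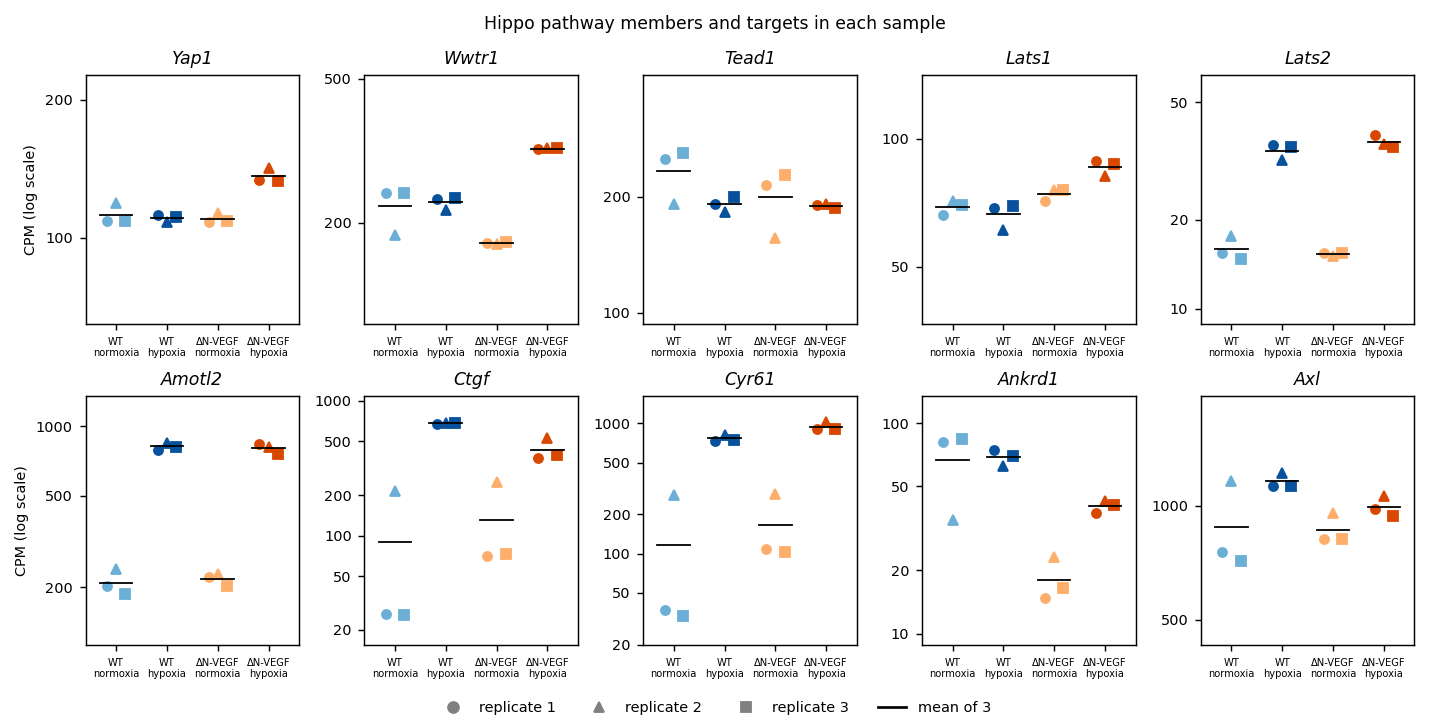
CPM of each gene in each of the 12 samples (log scale, with its own range in each panel), by group. Marker shape gives the replicate number and the line the mean of 3. In Ctgf and Cyr61, replicate 2 of both normoxia groups (triangles) sits well above the other normoxia samples, and in WT normoxia it is the lowest of 3 in Ankrd1, Wwtr1 and Tead1.

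Yap1 lies at chr9:7931999-8004596 on the minus strand. It encodes YAP, a coactivator with no DNA-binding domain of its own. Yap1 was at 109, 119 and 109 CPM in WT normoxia and 112, 108 and 111 in WT hypoxia. In ΔN-VEGF cells it was at 108, 113 and 109 CPM in normoxia and 134, 142 and 133 in hypoxia. The WT groups overlapped, and the 3 hypoxic ΔN-VEGF samples were above the other 9. The log2 fold change with hypoxia was -0.02 ± 0.07 (SE) in WT (adjusted p = 0.83), while ΔN-VEGF cells showed 0.31 ± 0.07 (0.0052, quasi-likelihood test of edgeR, Benjamini-Hochberg adjusted, n = 3 per group). Scaling by total counts alone, which moved the median of all genes in ΔN-VEGF cells from -0.01 to -0.41, turned the second value to -0.10, and with no filter on low counts it was 0.21 and did not pass (0.24). The difference between the responses was 0.33 ± 0.11 and did not pass (adjusted p = 0.11, same edgeR test), but it did with DESeq2's Wald test (0.0074).

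Wwtr1 (chr3:57455649-57575910, minus strand) encodes TAZ, the paralogue of YAP. It was at 241, 185 and 241 CPM in WT normoxia and 232, 217 and 234 in WT hypoxia. The ΔN-VEGF samples were at 176, 175 and 177 CPM in normoxia and 319, 321 and 321 in hypoxia. The 3 samples of each ΔN-VEGF group almost coincided, the WT groups overlapped, and the low WT normoxia value was that of replicate 2. Hypoxia changed Wwtr1 by 0.04 ± 0.10 on the log2 scale in WT (adjusted p = 0.81), and raised it in ΔN-VEGF cells by 0.86 ± 0.10 (4.4e-05, edgeR, n = 3 per group). The difference between these responses was 0.83 ± 0.15 (95% interval 0.51 to 1.15, edgeR's adjusted p = 0.016), the 1 call among the 10 genes, where 3.36% of all genes were called (2.21% higher, 1.15% lower). Its size stayed between 0.76 and 0.93 when single samples were left out, and it was 0.66 with total counts alone (adjusted p = 0.069). The call was lost, at adjusted p of 0.052 to 0.061 by edgeR, without WT hypoxia replicate 1 or 3, ΔN-VEGF normoxia replicate 1 or 3, or any 1 of the ΔN-VEGF hypoxia samples.

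TAZ transcript exceeded YAP transcript in every sample. Per kilobase of exon, the ratio of Wwtr1 to Yap1 was 3.10 ± 0.0835 in ΔN-VEGF normoxia and 4.55 ± 0.15 in ΔN-VEGF hypoxia (mean ± SD, n = 3), and these groups did not overlap. In WT cells it was 4.27, 3.01 and 4.29 in normoxia and 3.88 to 4.08 in hypoxia, which overlapped. With 3 samples against 3, an exact permutation test of such a ratio cannot go below p = 0.1, so none is given.

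Tead1 (chr7:112679318-112906807, plus strand) encodes a TEAD factor, which carries YAP and TAZ to DNA. It was at 250, 192 and 259 CPM in WT normoxia and 192, 183 and 200 in WT hypoxia. ΔN-VEGF cells had 214, 156 and 228 CPM in normoxia and 190, 192 and 187 in hypoxia. In both lines the normoxia samples numbered 2 were the lowest of their group, and normoxic and hypoxic samples overlapped. The log2 fold change was -0.28 ± 0.15 in WT (adjusted p = 0.15) and -0.07 ± 0.15 in ΔN-VEGF cells (0.71, edgeR). The WT value passed without replicate 2 of WT normoxia (-0.40, adjusted p = 0.013), and both passed without the pair of normoxia samples numbered 2 (-0.40 and -0.23, 1.8e-06 and 0.00098, edgeR).

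The kinase genes Lats1 and Lats2 differed from each other. Lats2 (chr14:57689662-57758388, minus strand) was at 15.5, 17.7 and 14.8 CPM in WT normoxia and 35.9, 31.8 and 35.3 in WT hypoxia. In ΔN-VEGF cells it was at 15.4, 15.1 and 15.4 CPM, and 38.8, 36.2 and 35.3 in hypoxia. All hypoxic samples were above all normoxic ones, and the lines overlapped in hypoxia. Lats2 rose 2.14-fold in WT (log2 1.10 ± 0.10, adjusted p = 8.6e-06) and 2.40-fold in ΔN-VEGF cells (1.27 ± 0.10, 1.6e-06, edgeR), in each of the 20 alternatives tried in either line. The difference between the responses was 0.16 on the log2 scale (95% interval -0.14 to 0.46). Of the exonic length of Lats2, 42.4% is shared on the same strand with Gm49361, which had 0 counts. Whether reads in the shared part were counted for Lats2 was not checked. Its level per kilobase, and the ratio and order that use it, may therefore be too low.

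Lats1 (chr10:7681214-7716460, plus strand), the paralogue, was at 66.0, 71.2 and 69.7 CPM in WT normoxia and 68.7, 61.0 and 69.4 in WT hypoxia. The ΔN-VEGF samples were at 71.2, 75.6 and 75.8 CPM in normoxia and 88.4, 81.5 and 87.1 in hypoxia. The WT groups overlapped and the ΔN-VEGF groups did not. Lats1 changed by -0.06 ± 0.08 on the log2 scale in WT (adjusted p = 0.63), while ΔN-VEGF cells gave 0.21 ± 0.08 (0.054, edgeR), and neither passed. The second value passed in 6 of 20 alternatives. Among them were fits without replicate 2 of WT normoxia (0.20, adjusted p = 0.021) and of the 6 ΔN-VEGF samples alone (0.18, 0.034, edgeR). Over all 12 samples it passed with RLE scaling factors (0.23, 0.035), with a filter of 10 counts in every sample (0.24, 0.02, edgeR) and with DESeq2's Wald test (0.21, 0.016). It was -0.19 with total counts alone (median of all genes -0.41). The ratio of Lats2 to Lats1 per kilobase went from 0.243 ± 0.0187 to 0.542 ± 0.00815 in WT and from 0.216 ± 0.00888 to 0.450 ± 0.0223 in ΔN-VEGF cells (mean ± SD, n = 3). Lats1 remained the more abundant of the pair in all 12 samples.

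Amotl2 (chr9:102716672-102733418, plus strand) encodes a motin, a junction-associated scaffold that binds YAP and promotes LATS activity. It was at 202, 240 and 187 CPM in WT normoxia and 791, 850 and 814 in WT hypoxia. ΔN-VEGF cells had 222, 228 and 202 CPM in normoxia and 835, 817 and 758 in hypoxia. Normoxic and hypoxic samples were far apart and the lines overlapped in both conditions. It rose 3.90-fold in WT (log2 1.96 ± 0.11, adjusted p = 2.7e-07) and 3.69-fold in ΔN-VEGF cells (1.88 ± 0.11, 1.7e-07, edgeR). The difference between the responses, -0.08 on the log2 scale, had a 95% interval of -0.40 to 0.24. Without both normoxia samples numbered 2 the rises were 2.08 and 1.91 on the log2 scale. These samples stood at 1.24 and 1.08 times the mean of the others in Amotl2.

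**Figure D3:**
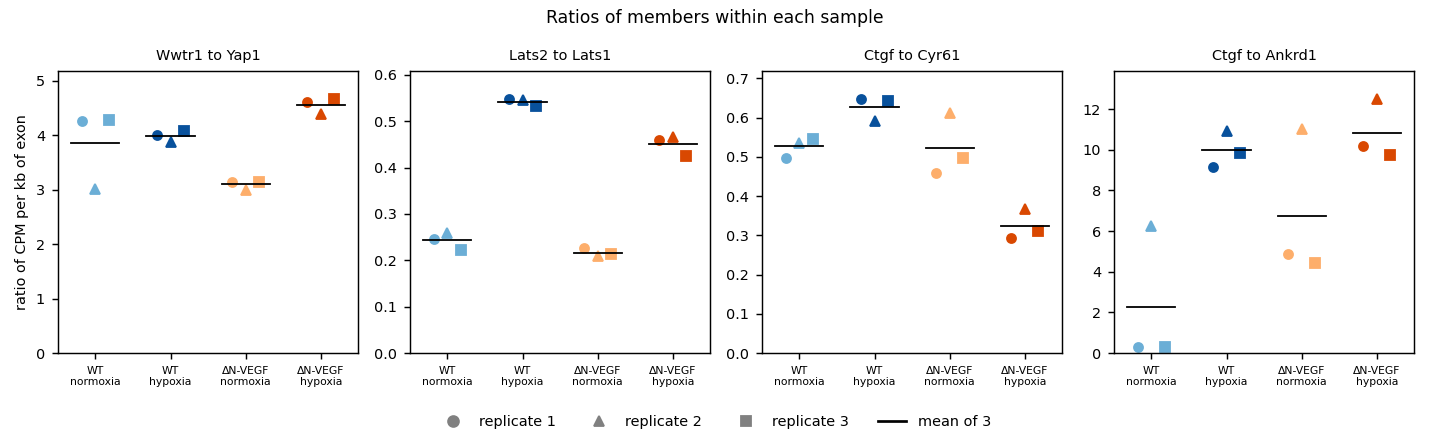
Ratios of CPM per kilobase of exon within each sample, by group (points are replicates, lines means of 3). Lats2 to Lats1 was higher in all hypoxic samples, Ctgf to Cyr61 was highest in WT hypoxia (mean 0.628) and lowest in ΔN-VEGF hypoxia (0.324), and Ctgf to Ankrd1 was 0.325 and 0.306 in replicates 1 and 3 of WT normoxia but 6.23 in replicate 2.

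Ctgf and Cyr61 encode the secreted matricellular proteins CCN2 and CCN1, the most used readouts of YAP and TAZ activity. Ctgf (chr10:24595442-24598683, plus strand) was at 26.1, 215 and 25.6 CPM in WT normoxia and 677, 680 and 683 in WT hypoxia. In ΔN-VEGF cells it was at 71.1, 251 and 72.6 CPM in normoxia and 377, 530 and 395 in hypoxia. Within each line all hypoxic samples exceeded all normoxic ones, and in hypoxia all WT samples exceeded all ΔN-VEGF ones. The normoxia samples numbered 2 stood 8.31-fold (WT) and 3.49-fold (ΔN-VEGF) above the mean of the other pair, which is 64.8% and 69.9% of the log2 distance from that pair to the hypoxic mean.

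Ctgf rose 7.66-fold in WT (log2 2.94 ± 0.80, adjusted p = 0.014, edgeR), and a fit of the 6 WT samples alone did not pass (0.055). In ΔN-VEGF cells the log2 fold change was 1.72 ± 0.76 and did not pass (adjusted p = 0.078, edgeR). Without replicate 2 of WT normoxia the WT value was 4.72 ± 0.51 (6.3e-06), and the ΔN-VEGF value passed at an unmoved 1.72 (0.0013, edgeR). It also passed without replicate 2 of ΔN-VEGF normoxia (2.59, adjusted p = 0.030) and in a fit of the 6 ΔN-VEGF samples alone (1.71, 0.013, edgeR). With both of these libraries left out, the rises were 4.72 ± 0.12 and 2.59 ± 0.11, and their difference of -2.13 ± 0.14 passed (adjusted p = 1.5e-10, edgeR), where over all 12 samples it was -1.21 ± 1.05 (0.55). In the fit with replicate number as a block, the ΔN-VEGF rise was 2.04 and passed (adjusted p = 0.012, edgeR). Over 23.2% of its exonic length Ctgf has an antisense partner, Gm15270, with 67 counts in all samples together, and the library kit does not mark strand.

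Cyr61 (chr3:145646976-145649981, minus strand) was at 37.0, 282 and 33.0 CPM in WT normoxia and 737, 810 and 750 in WT hypoxia. The ΔN-VEGF samples were at 109, 289 and 103 CPM in normoxia and 908, 1020 and 897 in hypoxia. As for Ctgf, no hypoxic sample overlapped a normoxic one and replicate 2 was the highest in normoxia, but in hypoxia the ΔN-VEGF samples were the higher ones. Cyr61 rose 6.52-fold in WT (log2 2.70 ± 0.74, adjusted p = 0.015) and 5.63-fold in ΔN-VEGF cells (2.49 ± 0.74, 0.015, edgeR). The WT rise was 4.46 ± 0.40 without replicate 2 of WT normoxia, and did not pass in a fit of the 6 WT samples alone (2.70, adjusted p = 0.066, edgeR). Leaving out both normoxia samples numbered 2, the rises were 4.46 ± 0.08 and 3.14 ± 0.08, and their difference of -1.32 passed (adjusted p = 9.9e-10, edgeR), where over all samples it was -0.21 ± 0.99 (0.93). The sign of that difference was not stable: it was 0.44 without replicate 2 of ΔN-VEGF normoxia and 0.21 and 0.23 without replicate 1 or 3 of WT normoxia, none of them called. The ΔN-VEGF call was lost without replicate 1 (2.25, adjusted p = 0.058) or replicate 3 (2.23, 0.058, edgeR) of ΔN-VEGF normoxia.

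The ratio of Ctgf to Cyr61 per kilobase was steady in WT normoxia, at 0.498, 0.536 and 0.547, although replicate 2 stood 8.31-fold above the others in Ctgf and 8.09-fold in Cyr61. The ratio was 0.628 ± 0.0307 in WT hypoxia and 0.324 ± 0.0383 in ΔN-VEGF hypoxia (mean ± SD, n = 3), with no overlap between these groups. In ΔN-VEGF normoxia it was 0.458, 0.611 and 0.498, above all 3 hypoxic values of that line.

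Ankrd1 (chr19:36111965-36119844, minus strand) encodes a stress-responsive ankyrin repeat protein first known from heart muscle and is likewise a common YAP readout. In WT cells it did not follow the CCN genes. Ankrd1 was at 81.2, 34.8 and 84.3 CPM in WT normoxia and 74.6, 62.8 and 70.0 in WT hypoxia. ΔN-VEGF cells had 14.7, 23.0 and 16.5 CPM in normoxia and 37.4, 42.7 and 41.0 in hypoxia. Every ΔN-VEGF sample was below the WT samples of the same condition, and replicate 2 of WT normoxia, the highest of its group in Ctgf and Cyr61, was the lowest here at 0.42 times the others. Replicate 2 of ΔN-VEGF normoxia was the highest of its group, 1.48-fold above the others, as it was in Ctgf and Cyr61.

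Hypoxia raised Ankrd1 2.23-fold in ΔN-VEGF cells (log2 1.16 ± 0.28, adjusted p = 0.0054, edgeR), and by 0.76 on the log2 scale with total counts alone, which did not pass (0.055). In WT cells the log2 fold change was 0.05 ± 0.28 (0.91, edgeR). It was -0.25 in WT without replicate 2 of WT normoxia (adjusted p = 0.16) and -0.25 ± 0.07 without both normoxia samples numbered 2 (0.0046, edgeR), where the ΔN-VEGF rise was 1.37 ± 0.08. The difference between the responses was 1.11 ± 0.40 (adjusted p = 0.14) over all samples and 1.62 ± 0.11 (2.4e-10, edgeR) without those samples, and passed also without replicate 2 of WT normoxia alone (1.40, 0.00012). The ratio of Ctgf to Ankrd1 per kilobase, 0.325, 6.23 and 0.306 in WT normoxia, was 9.15 to 10.9 in WT hypoxia.

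Axl (chr7:25757273-25788705, minus strand), a TAM receptor tyrosine kinase for GAS6, was at 755, 1160 and 715 CPM in WT normoxia and 1130, 1220 and 1130 in WT hypoxia. In ΔN-VEGF cells it was at 817, 959 and 816 CPM in normoxia and 983, 1060 and 938 in hypoxia. Replicate 2 was the highest sample in all 4 groups, and it made the groups overlap in both lines. The log2 fold change was 0.40 ± 0.16 in WT (adjusted p = 0.077) and 0.20 ± 0.16 in ΔN-VEGF cells (0.32, edgeR), and neither passed. The WT value passed without replicate 2 of WT normoxia (0.66 ± 0.09, adjusted p = 3.7e-05) and in the fit with replicate number as a block (0.43, 0.021, edgeR). The ΔN-VEGF value passed without the same library (0.19, adjusted p = 0.043) and without both normoxia samples numbered 2 (0.27, 0.00044, edgeR), and was -0.20 with total counts alone.

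Between the lines in normoxia, 1 of the 10 genes was called, Ankrd1, where 4.36% of all genes were (1.39% higher, 2.97% lower). In 2 genes, Ankrd1 and Wwtr1, the lines did not overlap, as in 16.3% of all genes. Ankrd1 in ΔN-VEGF cells was at 0.271 times its WT level (18.1 ± 4.39 against 66.8 ± 27.7 CPM, SD, n = 3; log2 -1.88 ± 0.29, adjusted p = 0.0058, edgeR). Same-numbered normoxia samples of the lines deviated together, but the labels do not say that they are paired, and replicates 1 and 3 did so across numbers too. With replicate number as a block over all 12 samples the Ankrd1 value was -1.85 and passed (adjusted p = 0.018, edgeR). A fit of these 6 samples alone did not pass, without the block (-1.90, adjusted p = 0.22) or with it (-1.81, 0.24, edgeR). Ctgf, Cyr61 and Wwtr1 differed by 0.57, 0.51 and -0.34 on the log2 scale with adjusted p of 0.73, 0.74 and 0.096 (edgeR). With the block they were 0.85, 0.84 and -0.33 over all 12 samples (0.40, 0.41 and 0.089, edgeR). Over the 6 normoxia samples they were 1.06, 1.09 and -0.32 with it (0.25, 0.28 and 0.33, edgeR). Ctgf and Cyr61 were higher in ΔN-VEGF cells at each of the 3 sample numbers. Wwtr1 passed with DESeq2's Wald test over all 12 samples (-0.33, adjusted p = 0.025). Leaving out replicate 2 of WT normoxia brought the count of called genes to 6, with 48.9% of all genes called: Ctgf (2.36), Cyr61 (2.27) and Axl (0.25) were then higher and Ankrd1 (-2.18), Wwtr1 (-0.44) and Tead1 (-0.34) lower in ΔN-VEGF cells. When replicate 2 of ΔN-VEGF normoxia was left out instead, Ctgf turned to -0.31 and Cyr61 to -0.15 (adjusted p of 0.92 and 0.97, edgeR). Leaving out both normoxia samples numbered 2, these 6 genes were called in the same directions, with Ctgf at 1.49, Cyr61 at 1.61 and Ankrd1 at -2.40, and 53.6% of all genes were called there.

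Between the lines in hypoxia, 3 of the 10 genes were higher in ΔN-VEGF cells and 0 lower, with 20.1% of all genes called (10.8% higher, 9.36% lower). Wwtr1 was higher by 0.49 ± 0.10 on the log2 scale (adjusted p = 0.0077), Lats1 by 0.37 ± 0.08 (0.011) and Yap1 by 0.30 ± 0.07 (0.017, edgeR). None of the 3 reached 2-fold, as 6.81% of all genes did with a call, and all 3 calls were lost when total counts alone set the scale (0.27, 0.15 and 0.08, beside a median of all genes of -0.23). The Yap1 call was also lost when any 1 of the 6 hypoxic samples was left out (adjusted p of 0.057 to 0.085), and the Lats1 call without replicate 1 or 3 of ΔN-VEGF hypoxia (0.058 and 0.051, edgeR). With no filter on low counts both were lost as well (0.15 and 0.075, edgeR). Ankrd1 was at -0.78 ± 0.28 (adjusted p = 0.074), Ctgf at -0.65 ± 0.75 (0.60) and Cyr61 at 0.30 ± 0.70 (0.81, edgeR). The Ankrd1 value passed without replicate 2 of WT normoxia (0.00049), with total counts alone (-1.0, 0.036) and with no filter on low counts (0.045, edgeR). It passed with DESeq2's Wald test as well (0.048). Axl was at -0.22 (adjusted p = 0.38) and passed without replicate 2 of WT normoxia (-0.22, 0.033) and with total counts alone (-0.44, 0.017, edgeR). Amotl2, at -0.03 (0.89), passed with total counts alone too (-0.25, 0.031, edgeR). On that scale the genes called were thus Ankrd1, Axl and Amotl2, all lower in ΔN-VEGF cells.

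The spread behind the values of Ankrd1, Ctgf, Cyr61 and Axl over 12 samples is shared with the normoxia samples. When the 6 hypoxic samples were fitted alone, 57.0% of all genes were called, and 7 of the 10 genes passed: Ankrd1 (-0.79, adjusted p = 8.7e-08), Ctgf (-0.65, 1.2e-05) and Axl (-0.23, 0.0034) lower, and Wwtr1 (0.48), Lats1 (0.36), Yap1 (0.29) and Cyr61 (0.29, 0.00077, edgeR) higher in ΔN-VEGF cells. In these 7 genes the hypoxic samples of the lines did not overlap, which held for 59.8% of all tested genes. Ctgf and Cyr61, which encode related proteins, stood on opposite sides of WT in that fit.

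**Figure D4:**
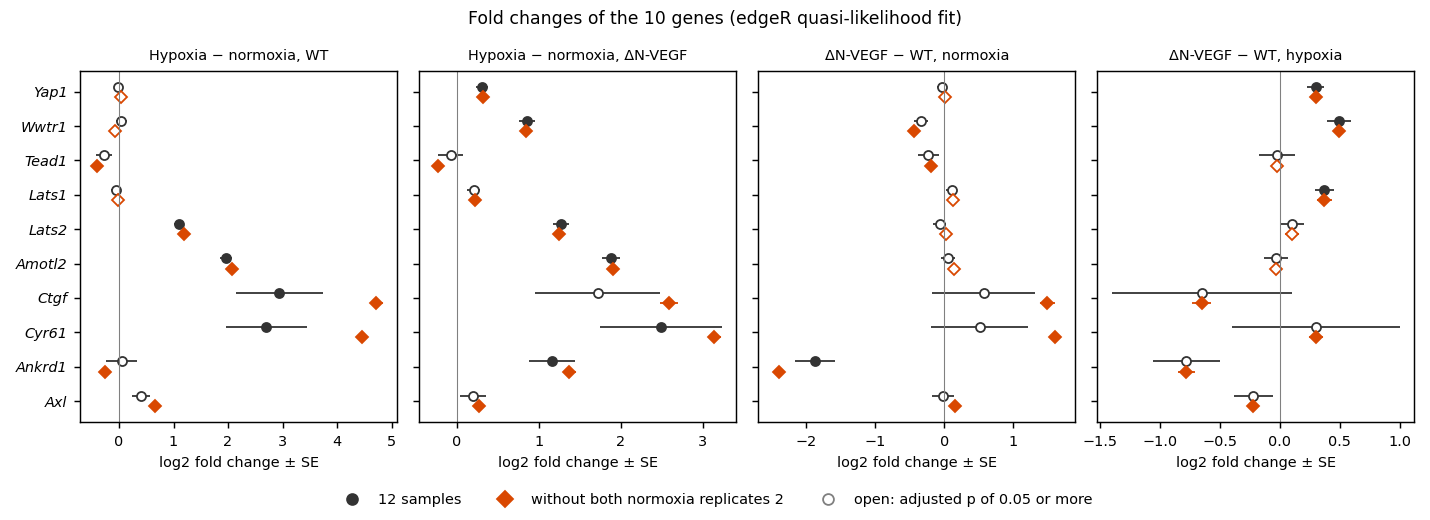
Log2 fold change ± SE of each gene from edgeR's quasi-likelihood fit, over 12 samples (circles) and without both normoxia samples numbered 2 (diamonds), in 4 comparisons. Filled symbols have an adjusted p below 0.05, and the axes differ between panels. Ctgf and Cyr61 carry the widest errors over 12 samples, and Lats2 and Amotl2 barely move between the fits; the values of Yap1 (0.31) and Lats1 (0.21, not called) in ΔN-VEGF cells turn to -0.10 and -0.19 when total counts alone set the scale.

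With the pair of normoxia samples numbered 2 left out, the counts of called genes among the 10 were 7 in WT hypoxia (5 higher, 2 lower) and 10 in ΔN-VEGF hypoxia (9 higher, 1 lower), with 65.3% and 71.4% of all genes called. Between the lines in hypoxia the count was 7 (4 higher, 3 lower), with 55.8% of all genes called. For the difference between the responses the count was 7 (4 higher, 3 lower), with 52.8% of all genes called. None of the calls over 12 samples for that difference reached 2-fold among the 10, and 1.56% of all genes did. Without those samples, Ankrd1 (1.62), Wwtr1 (0.93), Yap1 (0.29) and Lats1 (0.24) rose more in ΔN-VEGF cells, and Ctgf (-2.13), Cyr61 (-1.32) and Axl (-0.39) less. Without replicate 2 of WT normoxia alone 6 of the 10 were called (44.4% of all genes), Ankrd1 (1.40), Wwtr1 (0.93) and Yap1 (0.27) higher and Ctgf (-3.01), Cyr61 (-1.97) and Axl (-0.47) lower.

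The order of levels per kilobase changed with hypoxia. In WT normoxia, Axl led with 174 ± 49.2 CPM per kilobase, followed by Cyr61 (58.2 ± 70.8), Wwtr1 (46.6 ± 6.78), Amotl2 (33.3 ± 4.39), Ctgf (31.0 ± 38.1) and Ankrd1 (23.1 ± 9.61; SD, n = 3). Cyr61 and Wwtr1, Amotl2 and Ctgf, Ctgf and Ankrd1, and Ankrd1 and Tead1 were neighbours within their spread, whereas Wwtr1 and Amotl2 did not overlap. Tead1 (17.2), Yap1 (12.2), Lats1 (9.45) and Lats2 (2.30) came last. This order rested on replicate 2 of WT normoxia. Over replicates 1 and 3 it was Axl (146), Wwtr1 (50.5), Amotl2 (30.9), Ankrd1 (28.7), Tead1 (18.7), Cyr61 (17.3), Yap1 (11.8), Lats1 (9.30), Ctgf (9.04) and Lats2 (2.18), so Cyr61 went from the second to the sixth place and Ctgf from the fifth to the ninth. In WT hypoxia, Cyr61 (379 ± 19.3) led, ahead of Ctgf (238 ± 1.12) and Axl (230 ± 10.3), which did not differ beyond their spread, and Amotl2 (130 ± 4.79).

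In ΔN-VEGF hypoxia the order at the top was Cyr61 (466 ± 33.5), Axl (197 ± 11.8), Ctgf (152 ± 29.1), Amotl2 (128 ± 6.45) and Wwtr1 (67.0 ± 0.171). Samples of Ctgf (132, 185 and 138) and Amotl2 (133, 130 and 121) overlapped, so the order of this pair is open. Yap1 (14.7), Tead1 (14.0), Ankrd1 (14.0) and Lats1 (11.7) came next, well below Wwtr1. Ankrd1 was the sixth gene in WT normoxia and the ninth in ΔN-VEGF normoxia (6.27 ± 1.52). Lats2 was the lowest of the 10 in all 4 groups, at 2.19 to 5.28 CPM per kilobase.

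Of 8523 genes at 10 CPM or more, those most like each target were found by the root-mean-square difference of centred log2 CPM over the 12 samples. Ctgf was nearest to Acta2 (0.34), Cyr61 (0.38) and Fosl1 (0.51), and Cyr61 to Acta2 (0.29), Ctgf (0.38) and Fosl1 (0.41). Acta2, smooth muscle actin, was at 180, 1010 and 161 CPM in WT normoxia and 2690 to 3110 in WT hypoxia, so its replicate 2 was raised too. Ankrd1 was nearest to Prune2 (0.26), Plcd3 (0.38) and Wipi1 (0.40). Prune2 was at 191, 43.0 and 193 CPM in WT normoxia and 35.6, 43.6 and 39.3 in ΔN-VEGF normoxia. Over the 10 samples without both normoxia samples numbered 2, Prune2 (0.11) was again nearest to Ankrd1 and Acta2 (0.31) to Ctgf, but Tinagl1 (0.18) was nearest to Cyr61.

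Of 22 other Hippo kinases and scaffolds 21 were tested, most of them acting upstream of LATS and Stk38 and Stk38l being LATS relatives. In WT hypoxia 2 rose and 5 fell, and in ΔN-VEGF hypoxia 4 rose and 7 fell (edgeR), with medians of -0.07 and 0.04. That is 7 and 11 of 21, near the 36.5% and 53.3% called among all genes. Amot, the founding motin, fell by 1.68 and 1.88 on the log2 scale where its relative Amotl2 rose, and Ajuba, a LIM protein that restrains LATS, rose by 1.72 and 1.82. Sav1, the adaptor of the MST kinases, rose by 0.58 in WT, and the kinase genes Stk38l and Stk3 fell by 0.61 and 0.55. In ΔN-VEGF cells Frmd6 (1.36) and Amotl1 (0.95) rose and Stk38l (-0.80) and Taok3 (-0.54) fell. Between lines and responses edgeR called 0 of 21 in normoxia, in hypoxia and for the interaction (4, 4 and 3 at an unadjusted p below 0.05, and 2, 1 and 1 with DESeq2). Of all genes 4.36%, 20.1% and 3.36% were called there, and 19.0%, 33.1% and 21.0% had an unadjusted p below 0.05.

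Of 7 TEAD and VGLL genes 6 were tested, and the same 3 rose and 1 fell in each line, where 36.5% and 53.3% of all genes were called. Tead4 was at 0.50 in WT and -0.43 in ΔN-VEGF cells and did not pass (adjusted p of 0.31 and 0.35, edgeR). Without both normoxia samples numbered 2 it rose in WT (1.27) and fell in ΔN-VEGF cells (-0.24), with a called difference of -1.51 (adjusted p = 1.7e-10, edgeR). Tead2 fell by 0.79 in WT and by 1.17 in ΔN-VEGF cells, while Vgll3 (2.83-fold and 2.78-fold) and Vgll4 (2.08-fold and 2.11-fold), cofactors that bind TEAD, rose. Vgll1 had 0 counts in all normoxia samples and was at least 71.2-fold higher in WT and at least 101-fold higher in ΔN-VEGF hypoxia (floor of 3 counts per library). Between the lines in hypoxia Tead2 (-0.48) and Vgll3 (-0.46) were lower and Vgll1 (0.60) higher in ΔN-VEGF cells, and Vgll3 was also lower in normoxia (-0.43).

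Of 16 other YAP/TAZ signature targets 13 were tested. In WT hypoxia 3 rose and 2 fell: F3, tissue factor (1.51), Crim1 (1.18) and Arhgef17 (0.42) rose and Tgfb2 (-1.88) and Ptpn14 (-0.78) fell. In ΔN-VEGF hypoxia 4 rose and 2 fell, led by F3 (2.75) and Gadd45a (2.21) and by Nuak2 (-0.89). The list's median was 0.07 in WT and 0.16 in ΔN-VEGF cells, and its calls, 5 and 6 of 13, were near or below the 36.5% and 53.3% of all genes. Between the lines 0 of 13 were called in normoxia (4 at an unadjusted p below 0.05, 1 with DESeq2), where 4.36% of all genes were, and in hypoxia Arhgef17 (0.47) was higher and Nuak2 (-0.87) lower in ΔN-VEGF cells, where 20.1% of all genes were called.

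Of 8 CCN and TAM relatives 7 were tested, and 4 fell in WT and 3 in ΔN-VEGF hypoxia, with no rise among the calls of edgeR (4 passed an unadjusted p below 0.05 in each line). Of all genes, 18.3% and 26.4% were called lower. In WT cells Wisp2 (-1.90), Tyro3 (-1.52), Wisp1 (-1.18) and Pros1 (-0.91) fell. Wisp1 and Wisp2 belong to the CCN family of Ctgf and Cyr61, which rose, and Tyro3 and Pros1 are a receptor and a ligand of the TAM system. In ΔN-VEGF cells Tyro3 (-1.71) and Wisp1 (-0.71) fell, and Nov, at 2 counts or fewer per hypoxic sample, was at least 4.94-fold lower. Gas6, the ligand of AXL, was lower in ΔN-VEGF than in WT normoxia (1.52 against 7.37 CPM, log2 -2.28), as were the receptor genes Mertk (-2.76) and Tyro3 (-0.69), whereas Axl did not pass. In hypoxia Mertk (-1.67) and Tyro3 (-0.87) were lower and Wisp2 (1.37) higher in ΔN-VEGF cells (all by edgeR at an adjusted p below 0.05).

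Without both normoxia samples numbered 2, where 65.3% and 71.4% of all genes were called, the kinases and scaffolds had 10 higher and 9 lower in WT and 9 and 8 in ΔN-VEGF hypoxia. The TEAD and VGLL genes had 4 higher and 2 lower in WT and 3 and 2 in ΔN-VEGF cells, the other signature targets 7 and 5 and then 6 and 5, and the CCN and TAM relatives 0 and 6 and then 2 and 4. Between the lines in normoxia, Gas6 was then at -3.18, Mertk at -3.19, Tyro3 at -0.76 and Vgll3 at -0.44 on the log2 scale, all called by edgeR. In that fit Gas6 (1.25) and Pros1 (0.22) were the CCN and TAM relatives that rose in ΔN-VEGF hypoxia.

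The TEAD core motif occurred in the promoters of 5 of 18 matched Hippo kinase and scaffold genes (26.3% of promoters), 4 of 6 TEAD and VGLL genes (62.5%), 2 of 10 other signature targets (18.2%) and 0 of 5 CCN and TAM relatives. For the 8 matched genes of the 10 it was 8 of 10 promoters, with the same Wwtr1 match counted in both promoters of that gene. Yap1, Wwtr1, Ankrd1 and Axl hold it and were not called in WT hypoxia, and no test of motif against response was made.

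**Figure D5:**
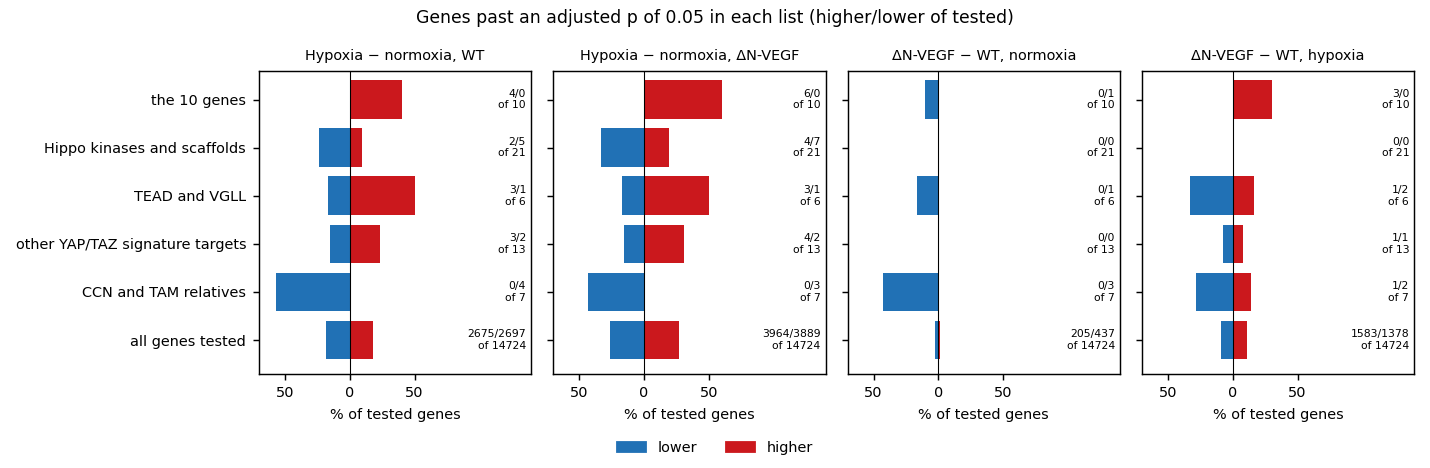
Percent of tested genes with an adjusted p below 0.05 (edgeR), higher to the right and lower to the left, for the 10 genes, the 4 other lists and all 14724 genes, in 4 comparisons. Numbers at the right give higher/lower and the number tested. Called members of the 10 all rose with hypoxia (4 and 6), the kinases and scaffolds held calls in both directions (2 higher and 5 lower, 4 higher and 7 lower, of 21), and the called CCN and TAM relatives fell (4 and 3).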

How the data were processed

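The authors prepared TruSeq v2 libraries from total RNA, which do not mark strand, sequenced 80-base single reads, trimmed them, aligned them to GRCm38.p6 with release 94 annotation, and deposited raw counts of reads per gene for each sample. The submitters' processing notes name FastQC 0.11.5, cutadapt 1.10, TopHat2 2.1.0, Bowtie2 2.2.6, HTSeq 0.6.1 and DESeq2 1.18.1. The deposited counts are whole numbers with no scaling, and the strand setting of the counting is not given in the sources used here.

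Groups and replicate numbers came from the sample labels. Genes were filtered with filterByExpr and tested with edgeR 4.0.16 (R 4.3.3, limma 3.58.1 as its library): TMM scaling (factors 0.825 to 1.206), a model of 4 group means fitted to the 12 samples, quasi-likelihood F tests, and p-values adjusted by Benjamini-Hochberg across 14724 genes. A gene was called at an adjusted p below 0.05. CPM are counts divided by the TMM-scaled library size, log2 CPM used a prior count of 2, and levels between genes are per kilobase of exon. Depth limits counting error only. On average over the tested genes the spread between samples exceeded counting error (the closest pair of replicates had a chi-square of 2.88 per gene). The 10 genes had at least 629 counts per sample, and their spread was not compared with counting error gene by gene. In some groups it was very small, as for Wwtr1 in ΔN-VEGF hypoxia (319, 321 and 321 CPM).

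The 10 genes and all lists were chosen with earlier results of these data known. All 10 are named, and of each other list at most the 3 highest and 3 lowest called genes per comparison. Lists came from general knowledge. Alternatives were DESeq2 1.42.0, RLE factors, total counts, a filter of 10 counts in every sample or none, only the 6 samples compared, a fold of at least 2, each sample left out, both normoxia samples numbered 2 left out, and replicate number as a block. Intervals use the t quantile of edgeR's total degrees of freedom. The edgeR and DESeq2 code was tested on simulated data with known changes.

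Whether replicate numbers pair samples was checked from the correlation of same-numbered deviations from the group means. In normoxia these were 0.378, 0.498 and 0.355 between the lines, over 0.1 for each number. Replicates 1 and 3 correlated across numbers as well (0.347 and 0.358). In the other comparisons they were -0.018 to 0.109. Promoters were searched in the RefSeq table on both strands. Other sequences of Tead1 and Ctgf were not used here.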

Additional observations from a re-analysis of the deposited data

Results flagged for a closer look

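The hypoxia response of Wwtr1 differed between the lines by a test of the difference itself, at 0.83 on the log2 scale (ΔN-VEGF minus WT, adjusted p = 0.016 by edgeR's quasi-likelihood test). The 3 ΔN-VEGF samples went from 175 to 177 CPM up to 319 to 321, and the WT groups overlapped. The same test picked out Nuak2, a kinase gene of the YAP/TAZ signature list, with a difference of -1.22 (adjusted p = 0.016, edgeR), and of -1.47 without both normoxia samples numbered 2 (2.4e-08). Nuak2 was at 6.82, 9.20 and 6.28 CPM in WT normoxia, 9.42, 9.04 and 9.58 in WT hypoxia, 10.3, 8.88 and 9.36 in ΔN-VEGF normoxia and 5.61, 5.15 and 4.63 in ΔN-VEGF hypoxia.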

How the results depend on the processing

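Of 990 alternative values of the 10 genes, 866 kept direction and call, 61 gained a call, 29 lost one and 34 changed direction, 4 of these with a call on either side; 10 more had no p and were not counted. Counts of called genes moved most with the normoxia samples numbered 2 left out (7, 10, 6, 7 and 7 in WT hypoxia, ΔN-VEGF hypoxia, between lines in normoxia, between lines in hypoxia, and between responses, in place of 4, 6, 1, 3 and 1). DESeq2 called 2 in WT hypoxia, 6 in ΔN-VEGF hypoxia, 2 and 4 between lines in normoxia and hypoxia, and 2 between responses. Of all genes with an adjusted p it called 31.7%, 41.9%, 8.16%, 21.0% and 10.7%. Calls gained over edgeR were Lats1 in ΔN-VEGF hypoxia (adjusted p = 0.016), Wwtr1 between lines in normoxia (0.025), Ankrd1 between lines in hypoxia (0.048) and Yap1 between responses (0.0074, DESeq2 Wald test). DESeq2 gave no p (NA) for Ctgf and Cyr61 in all 5 comparisons. Total counts alone gave 7 in WT hypoxia (4 higher, 3 lower) and 0 between responses, with 45.6% and 6.13% of all genes called. Between lines in hypoxia it called Ankrd1, Axl and Amotl2, all lower in ΔN-VEGF cells, and no gene higher, with 26.8% of all genes called. Fitting the 6 samples compared gave 2, 8, 0 and 7 in WT hypoxia, in ΔN-VEGF hypoxia and between lines in normoxia and hypoxia, with 23.8%, 67.6%, 0.108% and 57.0% of all genes called; Ctgf and Cyr61 in WT hypoxia then had adjusted p of 0.055 and 0.066 (edgeR). A fold of at least 2 gave 0 between lines in hypoxia and 0 between responses. Leaving out single samples gave 1 to 6 between lines in normoxia, where replicate 2 of WT normoxia gave the 6, 1 to 5 in hypoxia and 0 to 6 between responses.

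The replicate block over 12 samples gained the calls of Ctgf in ΔN-VEGF hypoxia and of Axl in WT hypoxia, and changed no other call of the 10 genes. The block over the 6 normoxia samples, chosen after seeing the data, gave 0 called genes between lines and Axl at 0.02.

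Directions changed as follows. With total counts alone, Wwtr1 (-0.21) and Ankrd1 (-0.21) in WT hypoxia, Yap1 (-0.10), Lats1 (-0.19) and Axl (-0.20) in ΔN-VEGF hypoxia, and Lats2 between lines in hypoxia (-0.12) and between responses (-0.02); the medians of all genes were then -0.30 in WT, -0.41 in ΔN-VEGF cells, -0.23 between lines and -0.15 between responses. With no filter, Yap1 (0.05), Lats2 (0.01) and Axl (0.06) between lines in normoxia. Without both normoxia samples numbered 2, Yap1 (0.03), Wwtr1 (-0.08) and Ankrd1 (-0.25) in WT hypoxia, and Yap1 (0.01), Lats2 (0.03) and Axl (0.16) between lines in normoxia. Leaving out single samples spanned, in WT hypoxia, -0.05 to 0.03 for Yap1, -0.08 to 0.09 for Wwtr1 and -0.25 to 0.25 for Ankrd1; between lines in normoxia, -0.05 to 0.03 for Yap1, -0.12 to 0.02 for Lats2, -0.02 to 0.18 for Amotl2, -0.31 to 2.36 for Ctgf, -0.15 to 2.27 for Cyr61 and -0.15 to 0.25 for Axl; in ΔN-VEGF hypoxia, -0.23 to 0.03 for Tead1; between lines in hypoxia, -0.05 to 0.01 for Tead1 and -0.06 to 0.01 for Amotl2; and between responses, -1.97 to 0.44 for Cyr61. Ctgf and Cyr61 between lines in normoxia turned without replicate 2 of ΔN-VEGF normoxia. Beyond what each construction fixes, the cause of these changes was not tested.

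Of the counts for the other lists, 340 of 420 alternatives stayed within 1.5 times. The order of levels and the likeness without both normoxia samples numbered 2 were added after seeing the data.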
